A study of Mus musculus with 16 samples.

Results

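The genes described here are 10 antioxidant genes known as targets of NRF2, and they were taken by name: Hmox1, Nqo1, Gclc, Gclm, Txnrd1, Srxn1, Gsr, Osgin1, Sqstm1 and Prdx1. They were chosen with earlier results of these data known, so counts among them are a description. Of the 22180 genes that the arrays measured through a probe set with a single gene symbol, 9 belong to this list. Prdx1, a peroxiredoxin, was not analysed here, because its 3 probe sets also carry the symbols of other genes. Each of the 9 genes had 1 single-symbol probe set, no filter on low values was applied, and their group means were 6.46 or higher on the log2 scale. That is above 4.93, the level below which 95% of 1409 sensory receptor genes lie.

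Expression was measured on 16 one-colour Affymetrix arrays of dendritic cells grown for 10 days from mouse bone marrow with GM-CSF (20 ng/ml), a growth factor that is known to yield cells with both dendritic and macrophage features. The mice were male and of the genotype that the labels write as C57/B6, with no age given and no engineered allele named. The cells were sampled after 24 h in 4 groups, each with n = 4 numbered biological replicates. They are cells given mock treatment, cells given PA (0.5 mM, bound to albumin at a molar ratio of 6), cells given IMQ, and cells given IMQ and PA together. PA is taken here to be palmitic acid, a saturated fatty acid, and IMQ to be imiquimod, which activates TLR7, an endosomal sensor of RNA. For IMQ the sources state both 3 uM and 3 ug/ml. Whether mock cells received albumin is not stated, and all groups share the GM-CSF culture. The labels do not say whether replicates came from separate animals or cultures, so the p-values speak of the scatter among these arrays alone, and that scatter may be technical. An array has no read depth, and the number of arrays limits the precision.

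NRF2, encoded by Nfe2l2, is a transcription factor that is held at a low level by KEAP1, an adaptor that passes it to a ubiquitin ligase for degradation. Oxidants and electrophiles modify KEAP1, and the NRF2 that then accumulates pairs with small MAF proteins and binds antioxidant response elements. BACH1 is a haem-regulated repressor of the same elements. In myeloid cells the pathway is known for limiting oxidative damage and for restraining inflammatory gene expression.

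The 9 genes did not follow one pattern across the 4 groups. Most were highest in cells given IMQ and PA. Among them, Gclc, Srxn1, Nqo1, Gclm, Txnrd1 and Hmox1 had a larger change with PA in the presence of IMQ than in its absence. Txnrd1, Hmox1 and Sqstm1 rose with IMQ alone and rose further when PA was added. The change of Sqstm1 with PA was of like size with and without IMQ. Gsr was highest with IMQ alone and fell when PA was added, and Osgin1 was lowest in cells given both. Values are log2 RMA values, a change is a difference of mean log2 values, followed after ± by its standard error from limma, and adjusted p-values are from limma with Benjamini-Hochberg adjustment over all 22180 genes, called under 0.05. Levels of different genes are not compared, because probe sets differ in brightness.

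**Figure D1:**
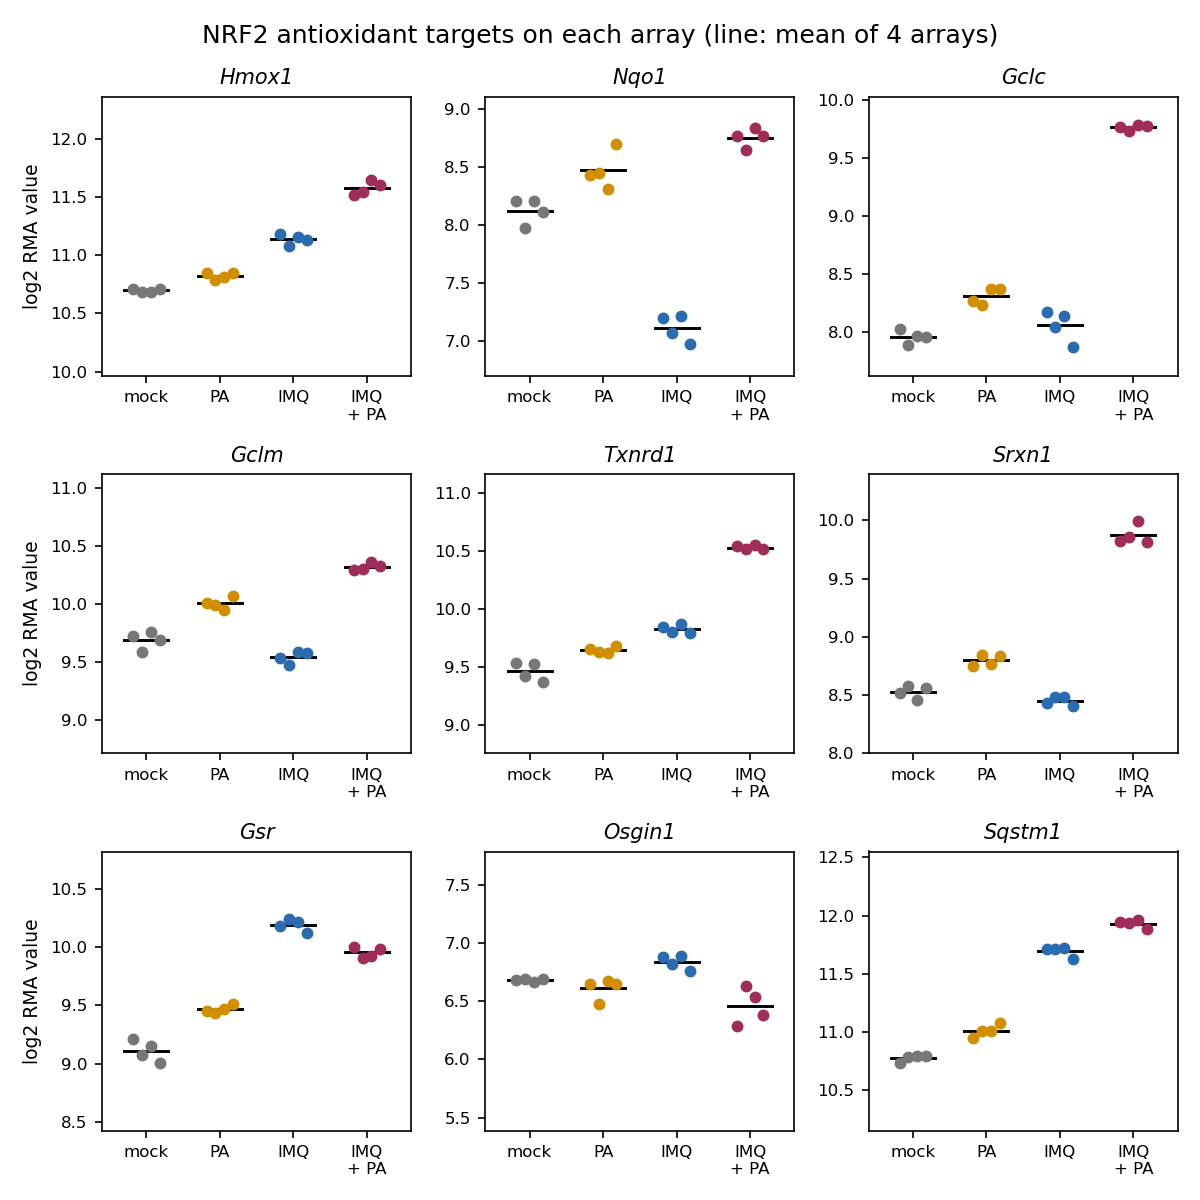
Each panel plots 1 gene, with the log2 RMA value on the vertical axis and the 4 groups on the horizontal axis. Points are single arrays and lines are means of 4 arrays, and every vertical axis spans the same range. Gclc stands at 9.73 to 9.78 with IMQ and PA and at 8.38 or lower elsewhere, while Gsr is highest with IMQ alone.

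Before the comparisons, 5 of the 8 arrays without IMQ stood apart from the other 3. Over 46 genes that IMQ raised by at least 3 on the log2 scale and that are in none of the lists used here, the typical signal was 4.43%, 5.37% and 5.73% on mock replicates 1 to 3, and 0.724% on mock replicate 4, as a percentage of the mean of the IMQ arrays. It was 0.933%, 1.05%, 3.27% and 3.96% on PA replicates 1 to 4. Some results of comparisons with mock or with PA alone are therefore also given without the 5 arrays over 2%, which leaves 1 mock and 2 PA arrays. In that fit the spread comes from the other groups, and the lone mock array is assumed to vary as they do, so its kept or lost calls say little about stability. Correlations between arrays of 1 group lay between 0.994 and 0.996 across genes, and 0 pairs of arrays were identical. The dendritic cell markers Itgax (mock mean 11.09) and H2-Ab1 (12.32) were bright, and so was the macrophage marker Csf1r (11.77), while all 7 measured lymphocyte markers lay below 4.93 in every group. RNA came from whole cultures, in which fewer cells of a type and less RNA per cell cannot be told apart.

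The cells given PA alone had 5 of the 9 genes called higher and 0 lower against mock, where 1.49% of all genes were called, 1.05% higher and 0.442% lower. The called genes were Gsr (0.36 ± 0.05, adjusted p = 0.0012), Gclc (0.35 ± 0.06, adjusted p = 0.00796), Gclm (0.32 ± 0.05, adjusted p = 0.00211), Srxn1 (0.27 ± 0.05, adjusted p = 0.0111) and Sqstm1 (0.23 ± 0.04, adjusted p = 0.01). The largest of these, that of Gsr, was 1.28-fold. Nqo1 (0.35 ± 0.08, adjusted p = 0.0525), Txnrd1 (0.18 ± 0.04, adjusted p = 0.0561), Hmox1 (0.13 ± 0.04, adjusted p = 0.175) and Osgin1 (-0.07 ± 0.07, adjusted p = 0.682) did not pass. Nqo1 was called with a variance trend (adjusted p = 0.00532), with dim genes left out (adjusted p = 0.0235), and without PA replicate 3 (0.40, adjusted p = 0.0382) or IMQ replicate 4 (adjusted p = 0.0498). The values of the 2 groups did not overlap for 8 of the 9 genes, as for 9.92% of all genes. The median change of the 9 genes was 0.27, against 0.01 for all genes. With 1 mock and 2 PA arrays left after the 5 arrays are taken out, 0 of the 9 genes were called and 15 of all genes were called, and the changes of the 5 genes were 0.44 for Gsr, 0.29 for Gclc, 0.31 for Gclm, 0.24 for Srxn1 and 0.18 for Sqstm1. When the mock and PA arrays were fitted alone, Srxn1 (adjusted p = 0.0604) and Sqstm1 (adjusted p = 0.0863) were not called, and with quantile normalization repeated Srxn1 was not (0.22, adjusted p = 0.0549).

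IMQ alone split the genes. Against mock it raised 4 of the 9 and lowered 2, where 34.8% of all genes were called, 17% higher and 17.9% lower. Of the 22180 genes, 8614 had means below 4.93 in all 4 groups, while the 9 genes lay above it. With those dim genes left out, 7694 genes were called with IMQ. The share called among brighter genes is thus higher than 34.8%, and it is likewise higher than the share of all genes in every other comparison. Gsr, Sqstm1, Hmox1 and Txnrd1 rose, and Nqo1 and Gclm fell. Gclc, Srxn1 and Osgin1 did not pass. The median change was 0.15 over the 9 genes and 0.01 over all genes. The groups did not overlap for 6 of the 9 genes, as for 34.2% of all genes.

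PA added to IMQ changed all 9 genes, with 7 called higher and 2 lower against IMQ alone, where 21.1% of all genes were called, 11.6% higher and 9.44% lower. The median change was 0.70, against -0.02 for all genes. The values of the 2 groups did not overlap for any of the 9 genes, as for 23.5% of all genes. The IMQ arrays enter both this comparison and that with mock, so the changes in the 2 comparisons are not independent of each other.

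**Figure D2:**
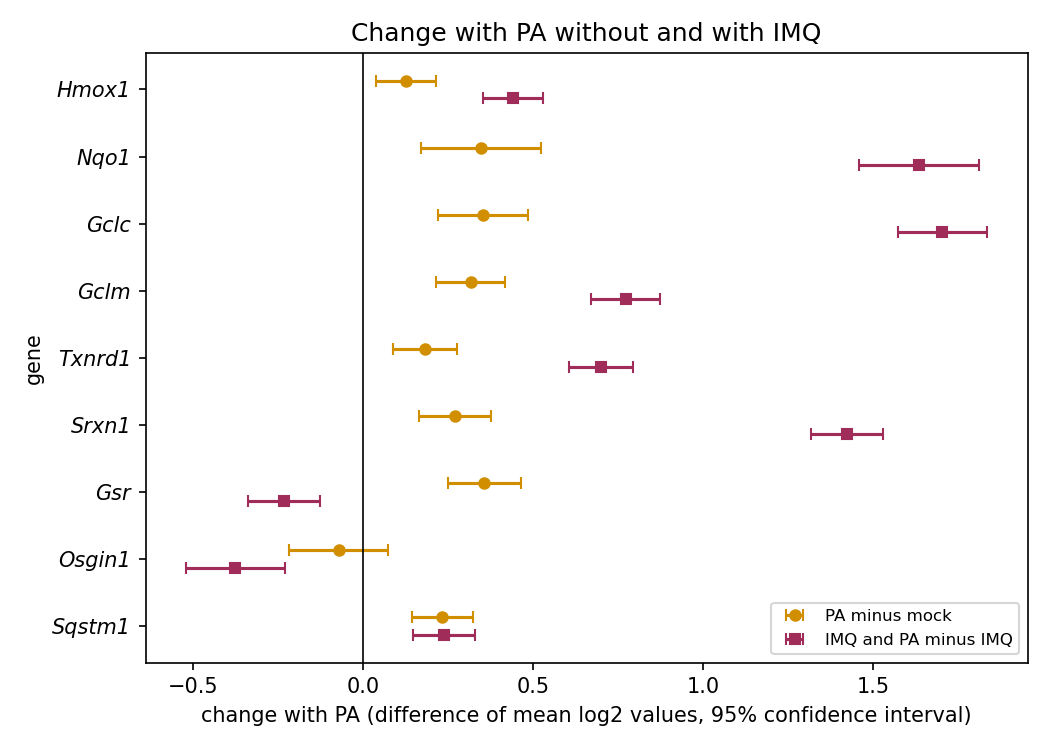
For each gene the horizontal axis gives the change with PA as a difference of mean log2 values with its 95% confidence interval, without IMQ (circles, PA minus mock) and with IMQ (squares, IMQ and PA minus IMQ). The intervals of Nqo1, Gclc, Gclm, Txnrd1, Srxn1 and Hmox1 lie further right with IMQ, those of Gsr and Osgin1 lie further left, and those of Sqstm1 nearly coincide.

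The glutathione genes come first. Glutamate-cysteine ligase makes the rate-limiting step of glutathione synthesis, with Gclc encoding its catalytic subunit and Gclm its modifier subunit. Gclc read 8.03, 7.89, 7.97 and 7.96 on the mock arrays, 8.27, 8.23, 8.37 and 8.38 with PA, 8.18, 8.04, 8.14 and 7.88 with IMQ, and 9.76, 9.73, 9.78 and 9.78 with IMQ and PA. Every array with both agents was far above every other array, and the IMQ arrays overlapped with mock. Gclc did not pass with IMQ alone (0.10 ± 0.06, adjusted p = 0.263), though it did without IMQ replicate 4 (0.16, adjusted p = 0.0349). It rose 3.26-fold when PA was added to IMQ (1.70 ± 0.06, adjusted p = 2.22e-11). Against mock, the combination raised it 3.49-fold (1.80 ± 0.06, adjusted p = 1.32e-12).

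Gclm also rose with PA, with and without IMQ, and fell with IMQ alone. It read 9.59 to 9.76 on the mock arrays, 9.95 to 10.07 with PA, 9.48 to 9.59 with IMQ and 10.29 to 10.36 with both. The highest IMQ array and the lowest mock array read 9.59 and 9.59, and the other groups were separate. PA added to IMQ raised Gclm 1.71-fold (0.77 ± 0.05, adjusted p = 6.8e-09). The fall with IMQ alone was small (-0.15 ± 0.05, adjusted p = 0.0247). That call was lost without mock replicate 1 (-0.13), mock replicate 3 (-0.12), IMQ replicate 1 (-0.14) or IMQ replicate 2 (-0.12), with the array medians set equal (-0.15, adjusted p = 0.0794), and without the 5 arrays with IMQ-type signal (-0.14, adjusted p = 0.216).

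The RefSeq promoter table (GRCm38.p6) held 7 of the 10 genes, with 9 start sites, and it lacked Hmox1, Gclc and Gsr. The 300 bases from 250 before to 50 after each start were searched on both strands for the core of the antioxidant response element, TGACNNNGC, and for the AP-1 element, TGANTCA, which can overlap with it. Of 32851 promoters of this length, 12.4% held the first and 7.81% the second. The stretch of 150 bases before the start is shown for Gclm and Srxn1, which rose when PA was added to IMQ, and for Osgin1, which fell, with matches in capitals.
Gclm: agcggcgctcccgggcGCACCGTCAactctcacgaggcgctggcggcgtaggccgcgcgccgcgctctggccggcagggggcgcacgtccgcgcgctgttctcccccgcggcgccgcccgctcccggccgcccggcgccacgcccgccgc
Srxn1: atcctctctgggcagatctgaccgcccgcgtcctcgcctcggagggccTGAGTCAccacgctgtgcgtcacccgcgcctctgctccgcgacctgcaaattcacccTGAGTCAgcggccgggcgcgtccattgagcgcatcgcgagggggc
Osgin1: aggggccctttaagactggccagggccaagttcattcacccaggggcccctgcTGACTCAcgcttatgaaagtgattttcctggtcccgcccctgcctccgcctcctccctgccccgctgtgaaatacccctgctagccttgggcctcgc
They lie at chr3:122245407-122245556, chr2:152105374-152105523 and chr8:119436997-119437146, all on the + strand. The Gclm match is to the antioxidant core on the reverse strand, 134 to 126 bases before the start. Srxn1 has AP-1 matches 102 to 96 and 45 to 39 bases before the start, and an antioxidant core 29 to 37 bases after it. The match at 45 to 39 is followed by the letters gc. Forms of the antioxidant core other than TGACNNNGC were not searched. The Osgin1 match is to AP-1, 97 to 91 bases before the start, and on the + strand it is preceded by gc and followed by cg. Read on the reverse strand it is TGAGTCA followed by gc, the same letters as the Srxn1 match at 45 to 39. A gene that rose and a gene that fell thus share the AP-1 letters. In the 300-base windows, 4 of the 7 genes held an antioxidant core (Srxn1, Gclm, Prdx1 and 1 of 3 start sites of Txnrd1) and 3 held AP-1 (Srxn1, Prdx1 and Osgin1). Neither was found in the windows of Nqo1 and Sqstm1, which says only that these letters are not there. A match describes the letters and does not show that a protein binds.

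Gsr encodes glutathione reductase, which returns oxidised glutathione to its reduced form with NADPH. It read 9.21, 9.07, 9.15 and 9.01 on the mock arrays, 9.46, 9.43, 9.47 and 9.51 with PA, 10.18, 10.24, 10.22 and 10.13 with IMQ, and 10.00, 9.91, 9.93 and 9.99 with both. No groups overlapped, and IMQ alone gave the highest level. IMQ raised Gsr 2.12-fold (1.08 ± 0.05, adjusted p = 4.45e-11). PA, which raised it without IMQ, lowered it in the presence of IMQ (-0.23 ± 0.05, adjusted p = 0.00266), so that the combination remained above mock by 0.85 ± 0.05 (adjusted p = 7.83e-10). The change with PA had opposite signs with and without IMQ, and the difference was itself called (-0.59 ± 0.07, adjusted p = 2.59e-05).

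When PA was added to IMQ, Srxn1 and Txnrd1 rose, as the synthesis genes did, while with IMQ alone Txnrd1 rose as Gsr did. Srxn1 encodes sulfiredoxin, which repairs over-oxidised peroxiredoxins, and Txnrd1 encodes the cytosolic thioredoxin reductase. Srxn1 read 8.52, 8.58, 8.46 and 8.56 on the mock arrays, 8.75, 8.84, 8.76 and 8.83 with PA, 8.43, 8.48, 8.48 and 8.40 with IMQ, and 9.82, 9.86, 10.00 and 9.81 with both. Mock and IMQ arrays overlapped, PA arrays lay above both, and arrays with both agents lay far above all others. IMQ alone gave no call (-0.08 ± 0.05, adjusted p = 0.262). PA added to IMQ raised Srxn1 2.68-fold (1.42 ± 0.05, adjusted p = 1.47e-11), and IMQ added to PA raised it 2.11-fold (1.08 ± 0.05, adjusted p = 4.29e-11).

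Txnrd1 rose with each step. It read 9.37 to 9.53 on the mock arrays, 9.62 to 9.68 with PA, 9.79 to 9.87 with IMQ and 10.51 to 10.54 with both, and no groups overlapped. IMQ alone raised it by 0.36 ± 0.04 (adjusted p = 5.24e-06), PA added to IMQ by 0.70 ± 0.04 (adjusted p = 9.75e-09), and both together by 1.06 ± 0.04, or 2.09-fold (adjusted p = 1.13e-11). The smaller change with PA alone missed the threshold, and it was called with a variance trend (adjusted p = 0.00161), with dim genes left out (adjusted p = 0.0185), with the IMQ-type share as a covariate (adjusted p = 0.0454) and without mock replicate 3 (adjusted p = 0.0463).

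Nqo1 and Hmox1 encode enzymes that remove quinones and haem. Nqo1, the NADPH quinone reductase often used as a readout of NRF2, read 8.21, 7.98, 8.20 and 8.12 on the mock arrays, 8.44, 8.45, 8.31 and 8.70 with PA, 7.20, 7.07, 7.22 and 6.98 with IMQ, and 8.77, 8.65, 8.84 and 8.77 with both. All IMQ arrays were lower than all others, and the arrays with both agents overlapped with 1 PA array. IMQ alone lowered Nqo1 2.01-fold (-1.01 ± 0.08, adjusted p = 5.27e-08). With PA added the level was 3.11-fold above that with IMQ alone (1.64 ± 0.08, adjusted p = 8.49e-10) and 1.55-fold above mock (0.63 ± 0.08, adjusted p = 1.14e-05). The change with IMQ in cells given PA was a rise (0.28 ± 0.08, adjusted p = 0.0132), and it was not called without PA replicate 3 (0.23, adjusted p = 0.0511).

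Hmox1 encodes haem oxygenase 1, which releases iron, carbon monoxide and biliverdin from haem and is repressed by BACH1. It read 10.71, 10.69, 10.69 and 10.71 on the mock arrays, 10.85, 10.79, 10.82 and 10.85 with PA, 11.19, 11.08, 11.16 and 11.13 with IMQ, and 11.52, 11.55, 11.65 and 11.60 with both. The 4 groups were separate, in the order mock, PA, IMQ, both. IMQ alone raised Hmox1 1.36-fold (0.44 ± 0.04, adjusted p = 2.86e-07), and PA added to IMQ raised it by the same amount again (0.44 ± 0.04, adjusted p = 9.35e-07). Although the PA and mock arrays did not overlap, the change with PA alone was called under a variance trend (adjusted p = 0.00953) and in none of the other 24 settings tried.

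Sqstm1 encodes p62, an autophagy receptor that can also sequester KEAP1. It read 10.74, 10.78, 10.79 and 10.79 on the mock arrays, 10.95, 11.01, 11.01 and 11.07 with PA, 11.71, 11.71, 11.73 and 11.63 with IMQ, and 11.94, 11.93, 11.97 and 11.89 with both. The groups were separate, and the step with PA was of like size without IMQ (0.23 ± 0.04) and with it (0.24 ± 0.04, adjusted p = 0.000586). IMQ raised Sqstm1 by 0.92 ± 0.04 in cells without PA (adjusted p = 4.35e-11) and by 0.92 ± 0.04 in cells with it (adjusted p = 3.73e-11). The 95% confidence interval of the difference between the changes with PA ran from -0.12 to 0.13.

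Osgin1, a stress-induced growth inhibitor, had the smallest range of group means of the 9 genes (0.38). It read 6.67 to 6.69 on the mock arrays, 6.48 to 6.67 with PA, 6.76 to 6.89 with IMQ and 6.29 to 6.63 with both. The groups with PA overlapped, and the IMQ arrays lay above the rest. PA added to IMQ lowered Osgin1 (-0.38 ± 0.07, adjusted p = 0.000692). The combination was also below mock (-0.22 ± 0.07, adjusted p = 0.0166), a call lost without IMQ and PA replicate 1 (-0.16) or 4 (-0.20), with equal array medians (adjusted p = 0.0589), with only the groups compared in the fit (adjusted p = 0.0527), with the IMQ-type share as a covariate (adjusted p = 0.255) and without the 5 arrays with IMQ-type signal (-0.23, adjusted p = 0.241).

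The design also asks whether the change with PA depended on IMQ. This is the interaction, the change with PA in cells given IMQ minus the change with PA in cells without it. It is 0 where the 2 single changes simply add on the log2 scale. It was called for 8 of the 9 genes, 6 higher and 2 lower, where 13.6% of all genes were called, 6.58% higher and 7.01% lower. The largest were Gclc (1.35 ± 0.09, adjusted p = 5.11e-08), Nqo1 (1.29 ± 0.12, adjusted p = 1.62e-06) and Srxn1 (1.15 ± 0.07, adjusted p = 2.87e-08). Txnrd1 (0.52 ± 0.06, adjusted p = 2.93e-05), Gclm (0.46 ± 0.07, adjusted p = 0.000199) and Hmox1 (0.32 ± 0.06, adjusted p = 0.00159) followed. Gsr (-0.59 ± 0.07) and Osgin1 (-0.30 ± 0.10, adjusted p = 0.0485) were lower, and Sqstm1 was not called (0.01 ± 0.06, adjusted p = 0.972). Osgin1 kept its call in 7 of 24 other settings.

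Set against mock, the sum of the single changes can be read beside the measured combined change. For Gclc the sum was 0.45 and the combined change 1.80, and for Srxn1 the values were 0.19 and 1.35. For Nqo1 the sum was -0.66 and the combined change 0.63, so that the combination lay on the other side of mock. For Gsr the sum was 1.44 and the combined change 0.85, and for Sqstm1 they were 1.15 and 1.16. Without the 5 arrays with IMQ-type signal the interactions were 1.41 for Gclc, 1.31 for Nqo1, 1.19 for Srxn1, 0.46 for Gclm, 0.43 for Txnrd1 and -0.67 for Gsr, all called, while Hmox1 (0.34, adjusted p = 0.0937) and Osgin1 (-0.25, adjusted p = 0.482) were not.

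**Figure D3:**
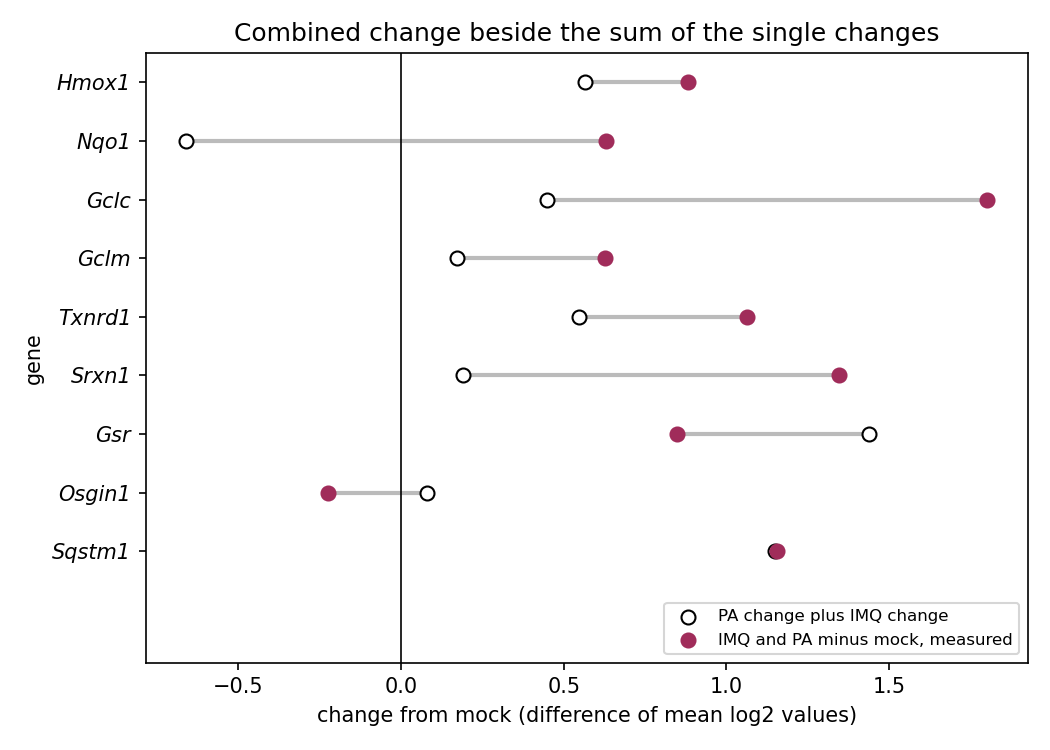
The horizontal axis gives the change from mock as a difference of mean log2 values, with open circles for the PA change plus the IMQ change and filled circles for the measured change with IMQ and PA. Filled circles lie to the right of open ones for 6 genes and to the left for Gsr and Osgin1, and the circles of Sqstm1 nearly coincide, at 1.15 and 1.16.

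In cells given PA, IMQ raised 8 of the 9 genes and lowered 0, where 35.3% of all genes were called, 16.8% higher and 18.5% lower. The groups did not overlap for 7 of the 9 genes, as for 35.7% of all genes. Osgin1 did not pass (-0.15 ± 0.07, adjusted p = 0.106), and it did without PA replicate 2 (-0.20, adjusted p = 0.0435) or IMQ and PA replicate 2 (-0.21, adjusted p = 0.0213). The changes ran from 0.28 for Nqo1 to 1.45 for Gclc. Against mock, the combination raised 8 of the 9 and lowered Osgin1, where 36.5% of all genes were called, 18.4% higher and 18.1% lower. The groups did not overlap for any of the 9 genes, as for 35.3% of all genes. These comparisons share the arrays with both agents.

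The regulators of the pathway come next. Nfe2l2, the gene of NRF2 itself, read 11.33 to 11.40 on the mock arrays, 11.27 to 11.35 with PA, 11.00 to 11.04 with IMQ and 11.18 to 11.25 with both. IMQ lowered it (-0.35 ± 0.04, adjusted p = 1.42e-06) and PA added to IMQ raised it by 0.20 ± 0.04 (adjusted p = 0.000986), to a level still below that of mock (-0.15 ± 0.04, adjusted p = 0.00517). That last call was lost with the array medians set equal (-0.12, adjusted p = 0.0626) and without the 5 arrays with IMQ-type signal (-0.11, adjusted p = 0.307). Bach1, the repressor, read 8.82 to 8.92 on the mock arrays, 8.84 to 9.01 with PA, 7.63 to 7.84 with IMQ and 7.73 to 7.86 with both. It fell 2.24-fold with IMQ (-1.16 ± 0.06, adjusted p = 6.38e-11), and PA added to IMQ gave no call (0.09 ± 0.06, adjusted p = 0.325). Keap1 rose slightly with IMQ (0.20 ± 0.06, adjusted p = 0.0263). Its second probe set had a change of like size that missed the threshold (0.19, adjusted p = 0.0609), and differed with both agents against mock (-0.06 against 0.20), so its probe sets disagree. With PA added to IMQ the second probe set was called lower (-0.24, adjusted p = 0.0275), where the first gave -0.0011. The IMQ call was also lost without mock replicate 1 or 4 or IMQ replicate 1, 3 or 4, with changes of 0.18 to 0.19. It was lost too with the IMQ-type share as a covariate (0.14, adjusted p = 0.407). Without the 5 arrays with IMQ-type signal the change was 0.21, given by its size alone because 1 mock array is left.

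Of the 12 regulators listed, 11 were measured. With PA alone 0 were called, where 1.49% of all genes were, and the changes of Nfe2l2 (-0.04 ± 0.04) and Keap1 (-0.12 ± 0.06) did not pass. With IMQ 6 rose and 2 fell, where 34.8% of all genes were called, with Nfe2l1, an NRF2 relative that drives proteasome genes (1.15 ± 0.05), the small MAF gene Maff (0.88 ± 0.07) and the ubiquitin ligase gene Fbxw11 (0.67 ± 0.06) higher. PA added to IMQ, with 21.1% of all genes called, raised 3 and lowered 1, which was Nfe2l1 (-0.36 ± 0.05, adjusted p = 3.95e-05). The interaction of Nfe2l2 was 0.24 ± 0.05 (adjusted p = 0.00535), and it was not called without the 5 arrays with IMQ-type signal (0.23, adjusted p = 0.177).

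**Figure D4:**
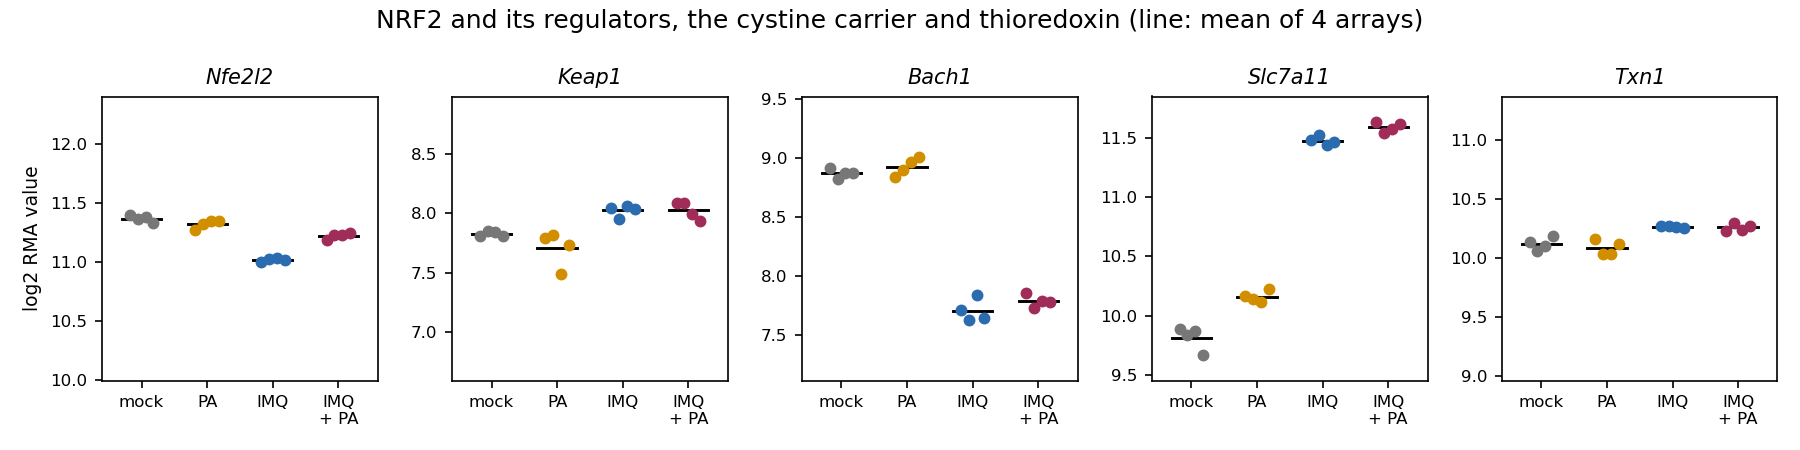
Each panel plots the log2 RMA value of 1 gene on the vertical axis over the 4 groups, with points for arrays and lines for means of 4 arrays. Bach1 lies at 7.63 to 7.86 on all arrays with IMQ and at 8.82 or higher on all arrays without it, and Slc7a11 lies at 11.44 or higher on all arrays with IMQ.

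Other genes linked to NRF2 were examined as a list of 28, of which 24 were measured. Like the other lists here, it was written with earlier results of these data known, so its counts are a description. With PA alone 5 rose and 0 fell, with IMQ 6 rose and 10 fell, and with PA added to IMQ 13 rose and 1 fell. The shares of all genes called higher and lower were 1.05% and 0.442%, 17% and 17.9%, and 11.6% and 9.44% in these 3 comparisons. Akr1b8, an aldo-keto reductase, rose with PA alone (0.65 ± 0.10, adjusted p = 0.00182) and 4.01-fold when PA was added to IMQ (2.00 ± 0.10, adjusted p = 4.44e-10), with no call for IMQ alone (0.12 ± 0.10, adjusted p = 0.393). Ephx1, the microsomal epoxide hydrolase, fell 7.38-fold with IMQ (-2.88 ± 0.07, adjusted p = 8.85e-14) and rose 3.30-fold when PA was added to IMQ (1.72 ± 0.07, adjusted p = 1.68e-10), which left it below mock (-1.16 ± 0.07, adjusted p = 2.34e-09). Ptgr1, a reductase of prostaglandins and alkenals, was not called with IMQ (-0.07 ± 0.06, adjusted p = 0.444) and rose with PA added to IMQ (1.22 ± 0.06, adjusted p = 8.68e-10). The interaction was called higher for 11 of the 24 genes and lower for 1, where 6.58% and 7.01% of all genes were, led by Ephx1 (1.62 ± 0.11), Akr1b8 (1.35 ± 0.14) and Ptgr1 (1.04 ± 0.09).

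Slc7a11 was the gene called lower. It encodes the cystine carrier that supplies glutathione synthesis and is also a target of ATF4. It read 9.66 to 9.88 on the mock arrays, 10.11 to 10.22 with PA, 11.44 to 11.52 with IMQ and 11.54 to 11.64 with both. IMQ raised it 3.17-fold (1.67 ± 0.05, adjusted p = 5.49e-13) and PA alone by 0.35 ± 0.05 (adjusted p = 0.00206), while PA added to IMQ missed the threshold (0.12 ± 0.05, adjusted p = 0.141). The interaction (-0.23 ± 0.07, adjusted p = 0.0472) was lost with the replicate block (adjusted p = 0.0727) and without most single arrays, and turned to 0.09 in a second probe set, where the change with PA alone was 0.005. Without the 5 arrays with IMQ-type signal, the PA calls of Slc7a11 (0.49, adjusted p = 0.0807) and Akr1b8 (0.54, adjusted p = 0.515) were lost. Txn1, thioredoxin, rose by 0.14 ± 0.04 with IMQ (adjusted p = 0.0172), a call lost with quantile normalization repeated (0.05, adjusted p = 0.393), without mock replicate 2 (0.12, adjusted p = 0.0559) and without the 5 arrays with IMQ-type signal (0.08, adjusted p = 0.563), and had no call with PA alone (-0.03 ± 0.04).

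A wider list of glutathione and thioredoxin genes went both ways. Of its 22 measured genes, 2 rose with PA alone and 0 fell, 11 rose and 6 fell with IMQ, and 6 rose and 11 fell when PA was added to IMQ, where 1.49%, 34.8% and 21.1% of all genes were called. The interaction was called higher for 2 of the 22 and lower for 10, against 6.58% and 7.01% of all genes. Gss, glutathione synthetase, which completes the synthesis begun by glutamate-cysteine ligase, rose by 0.79 ± 0.06 with PA added to IMQ (adjusted p = 3.07e-08). Oplah, the oxoprolinase of the glutathione cycle, rose by like amounts with PA alone (0.98 ± 0.08, adjusted p = 5.2e-06) and with PA added to IMQ (1.00 ± 0.08, adjusted p = 9.82e-08), with the first call lost without the 5 arrays (0.95, adjusted p = 0.0664). With PA added to IMQ, Msrb1, a methionine sulfoxide reductase (-0.84 ± 0.04, adjusted p = 6.45e-10), and Ggct, which degrades gamma-glutamyl dipeptides (-0.79 ± 0.07, adjusted p = 4.21e-07), fell. Glrx, glutaredoxin, rose with IMQ alone (1.83 ± 0.06, adjusted p = 8.28e-13), where the peroxidase Gpx1 fell (-0.82 ± 0.04, adjusted p = 2.22e-10).

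Cell type markers also moved with IMQ. With PA alone the 1 called of these was Marco (-0.56 ± 0.10, adjusted p = 0.0084), where 1.49% of all genes were called. With IMQ, of 7 measured dendritic cell markers 2 rose and 5 fell against mock, and of 7 measured macrophage markers 4 rose and 3 fell. In that comparison 17% of all genes were called higher and 17.9% lower. Marco was higher (3.04 ± 0.10) and Mrc1 lower (-3.62 ± 0.06). When PA was added to IMQ, 0 dendritic cell markers rose and 2 fell, and 3 macrophage markers rose and 4 fell. Here 11.6% of all genes were called higher and 9.44% lower. Mrc1 was among the macrophage markers that rose (1.05 ± 0.06). The sums that follow add linear values, so the brightest markers weigh most. With IMQ the bright macrophage markers Cd14 (1.84 ± 0.08) and Adgre1 (1.55 ± 0.05) rose, while Mrc1, Mertk and Csf1r fell. The summed macrophage marker level was 13.13 to 13.22 on mock arrays, 13.18 to 13.25 with PA, 13.80 to 13.86 with IMQ and 13.73 to 13.80 with both, on the log2 scale. The summed dendritic cell marker level was 13.00 to 13.04, 12.94 to 13.01, 12.43 to 12.47 and 12.46 to 12.48 in the same order of groups. The summed neutrophil marker level was 8.09 to 8.15, 7.94 to 8.09, 8.67 to 8.75 and 8.73 to 8.85. Of its 8 markers 2 were called higher and 1 lower with IMQ, and 1 higher and 1 lower with PA added to IMQ. S100a8 rose with IMQ (1.52 ± 0.08, adjusted p = 1.38e-10) and again with PA added to IMQ (0.26 ± 0.08, adjusted p = 0.0256). S100a9 fell with IMQ (-0.71 ± 0.11, adjusted p = 7.84e-05) to a mean below 4.93, so the fall is a lower bound of its size. Camp, below 4.93 in all groups, rose with IMQ (0.89 ± 0.12, adjusted p = 1.49e-05) and fell with PA added to IMQ (-0.60 ± 0.12, adjusted p = 0.00163). For mast cells, basophils and eosinophils the sums were 7.85 to 7.98, 7.74 to 8.03, 8.05 to 8.25 and 8.19 to 8.43. Of these 8 markers 2 were called higher and 0 lower with IMQ, and 1 higher and 0 lower with PA added to IMQ. Prg2 (0.45 ± 0.13, adjusted p = 0.0122) and Epx (0.37 ± 0.11, adjusted p = 0.0123) rose with IMQ from mock means below 4.93, so these rises are lower bounds. Prg2 rose again with PA added to IMQ (0.42 ± 0.13, adjusted p = 0.0302), where the 2 groups overlapped. Of the 8 neutrophil markers 4 were below 4.93 in all groups, as were 4 of the 8 markers of mast cells, basophils and eosinophils and 2 of the 4 measured erythroid markers. The part of these shifts in the results was not tested.

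Among 12918 other genes with a mean above 4.93, those whose log2 values over the 16 arrays were most like Hmox1 by Pearson correlation were the oxidised lipoprotein receptor gene Olr1 (r = 0.994), Rdh11 (0.994) and Lman1 (0.992). For Nqo1 they were Fkbp11 (0.990), Mamld1 (0.983) and Mmp19 (0.979), and for Gclm they were Fos (0.988), Ssr1 (0.983) and Gab1 (0.977). These values are given as a description with no test, since the arrays fall into 4 groups and the likeness is mainly that of the group means. Fkbp11, for example, had means of 7.42 in mock, 8.05 with PA, 6.04 with IMQ and 8.57 with both, a course like that of Nqo1.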

How the data were processed

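Gene expression was measured on 16 arrays, and the values deposited by the authors are log2 values. The tools listed in the submitters' processing notes are RMA and affy, with no version. RMA corrects background, normalises by quantiles and summarises probes. The genome build was not given in the sources used here. Of 41345 probe sets, 23521 had 1 gene symbol in the platform annotation and were kept. The 1814 with several and the 16010 with none were left out. Where a gene had several such probe sets (1082 genes), that of highest mean over all arrays stood for it, which left 22180 genes. Gene numbers matched RefSeq for 23328 probe sets, and 0 symbols changed.

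All 16 arrays were fitted with 4 group means in limma 3.58.1 (R 4.3.3; eBayes, 12 residual and 2.96 prior degrees of freedom), two-sided, with no filter on dim genes, in 6 comparisons. The fit was tested on simulated data. Named genes were the listed ones, with Nfe2l2, Keap1, Bach1, Slc7a11 and Txn1 in every comparison and up to 3 called genes per direction from each of 3 further lists. For Hmox1, Nqo1 and Gclm the 3 most correlated genes were also named, and markers were named where called or dim. The members and lists were chosen with earlier results of these data known. The implied share is the median of an array's linear value over the IMQ mean, after subtracting 4.93 as a linear value. Alternatives changed the normalization, the moderation, the arrays fitted, the replicate block, a dim filter, the probe set, each array in turn and the arrays with IMQ-type signal.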

Additional observations from a re-analysis of the deposited data

Results flagged for a closer look

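Single arrays stood far from the other 3 of their group for 3 of 56 sets of 4 arrays examined, where chance flags about 1 in 20. Osgin1 read 6.48 on PA replicate 2 and 6.65 to 6.67 on the other PA arrays. Sqstm1 read 10.74 on mock replicate 1 against 10.78 to 10.79, and 11.63 on IMQ replicate 4 against 11.71 to 11.73.

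The change with PA differed between cells given IMQ and cells without it, by the interaction in limma with Benjamini-Hochberg adjustment, for 8 of the 9 genes. The difference was 0.32 for Hmox1, 1.29 for Nqo1, 1.35 for Gclc, 0.46 for Gclm, 0.52 for Txnrd1 and 1.15 for Srxn1, and it was -0.59 for Gsr and -0.30 for Osgin1. Among the regulators it was 0.24 for Nfe2l2 and -0.50 for Nfe2l1. Among other genes linked to NRF2 it was 1.62 for Ephx1, 1.35 for Akr1b8, 1.04 for Ptgr1 and -0.23 for Slc7a11. In the wider glutathione and thioredoxin list it was called higher for 2 genes and lower for 10 of 22, and it was 0.57 for Gss, 0.27 for Msra (adjusted p = 0.0431), -0.92 for Ggct, -0.83 for Msrb1 and -0.72 for Chac1, which degrades glutathione. The call of Msra was lost with the replicate block (adjusted p = 0.0536), with equal array medians (adjusted p = 0.0808), with the IMQ-type share as a covariate (adjusted p = 0.111), without the 5 arrays with IMQ-type signal (adjusted p = 0.321) and without most single arrays.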

How the results depend on the processing

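For the 9 genes in 6 comparisons, 1280 of 1341 values under other settings kept their direction and their side of the threshold, 41 lost a call, 14 gained one and 6 changed sign. Those 6 were for the interaction of Sqstm1, which was near 0: -0.030 with quantile normalization repeated, -0.0074 with the IMQ-type share as a covariate, and -0.017 to 0.027 with an array left out. PA versus mock depended most on the setting. Its count of called genes was 331, and it was 737 with a variance trend and robust moderation (8 of the 9 genes), 150 when only the groups compared were fitted (3 of the 9), 530 with dim genes left out, where fewer genes are tested, and 15 without the arrays with IMQ-type signal, where fewer arrays are fitted (0 of the 9). Leaving out 1 array gave 170 to 346 genes and 5 to 6 of the 9. The count was 201 without mock replicate 1, 170 without mock replicate 2, 220 without PA replicate 3 and 192 without PA replicate 4. The interaction fell from 3015 to 1200 called genes without the arrays with IMQ-type signal. For Keap1 the second probe set gave 0.015 for PA versus mock, -0.070 for IMQ and PA versus PA, -0.055 against mock, -0.26 for the interaction and, as a gained call, -0.24 for PA added to IMQ (adjusted p = 0.0275). PA added to IMQ in the first probe set gave 0.026 with equal medians and -0.025 to 0.030 with an array left out. For Txn1, PA added to IMQ gave 0.027 with quantile normalization, 0.021 with equal medians and -0.019 to 0.0028 with an array left out. Bach1 gave -0.0034 for PA versus mock without the arrays with IMQ-type signal, and -0.0017 to 0.073 for the interaction with an array left out. The interaction of Slc7a11, called in the deposited values, gave 0.092 in its second probe set. Beyond the settings named, the cause was not tested. Whether the replicate numbers pair the arrays cannot be told from these values. Of 24 correlations of same-numbered deviations 4 passed 0.1. They were mock with IMQ on replicates 2 (0.15) and 3 (0.17), and, on replicate 3, mock and IMQ each with the combination (0.11 and 0.11). Of 16 arrays 7 correlated best with their own number, and no chance level was worked out for that count. The main fit did not use the numbers. With the replicate block, 259 genes and 5 of the 9 were called for PA versus mock, 7721 and 6 for IMQ versus mock, 4655 and 9 for PA added to IMQ, and 2942 and 7 for the interaction. Precision is limited by the 4 arrays of each group.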
